A study of Mus musculus with 12 samples.

Results

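The B-lineage receptor and factor transcripts were 9 genes: Cd79a, Cd79b, Blk, Vpreb1, Vpreb3, Igll1, Pax5, Ebf1 and Spib. They were chosen by name for known roles in B cell receptor signalling, the pre-B cell receptor and B cell commitment. Earlier results of these data were known when they were chosen. They were 9 of the 29838 genes of the expression table, and all 9 were among the 12994 genes tested. RNA of erythroblasts sorted from mouse bone marrow was sequenced at 4 stages of terminal erythroid differentiation, with 3 libraries per stage: proerythroblasts (Pro), basophilic (Baso), polychromatic (Poly) and orthochromatic erythroblasts (Ortho). All groups came from wild-type male C57BL/6 mice aged 8 weeks, and the groups differed in the gate they were sorted from. CD45- marrow cells were taken with magnetic beads, and live cells negative for CD45, CD11b and GR1 were sorted, Pro as CD44 high and Ter119 low, the later stages as Ter119 positive by CD44 staining and cell size. For Ortho replicates 2 and 3 the cell type label names no stage, and their titles placed them in this group. The labels do not say whether replicates came from separate mice, so p-values measure only the spread between these libraries, which may be technical.

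B cells are made in the bone marrow, beside the erythroblasts. Cd79a and Cd79b encode Igα and Igβ, the membrane pair that carries the signal of the pre-B cell receptor and of the mature B cell receptor, and Blk encodes a Src family kinase that acts below them. Before a light chain is made, the heavy chain is held by the surrogate light chain, whose parts are encoded by Vpreb1 and by Igll1 (λ5), whereas Vpreb3 encodes a related protein that stays inside the cell. Ebf1 and Pax5 encode the transcription factors that specify and commit the B lineage, and Spib encodes an Ets family factor of B cells and plasmacytoid dendritic cells. None of them is used as a marker of erythroid cells.

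In the GENCODE M21 annotation of mm10 all 9 are protein-coding. Cd79a lies at chr7:24897381-24902197 on the plus strand, Cd79b at chr11:106311341-106314762 on the minus strand and Blk at chr14:63372836-63417037 on the minus strand. Vpreb1 at chr16:16868403-16870843 and Igll1 at chr16:16860671-16863985, both on the minus strand, are neighbours with 4417 bases between them, whereas Vpreb3 lies apart at chr10:75943057-75949657 on the plus strand. Pax5 lies at chr4:44524757-44710487 on the minus strand, Ebf1 at chr11:44617317-45008091 on the plus strand and Spib at chr7:44525993-44532071 on the minus strand. FPKM of Vpreb1 needs care for 2 reasons. The 5′ end of its gene model overlaps Top3b, a topoisomerase gene on the opposite strand with an FPKM of 15.5 to 24.5, and the sources used here do not say whether reads were counted by strand. Its main transcript is also 97.4% identical to that of Vpreb2, over 759 aligned bases, so reads could be shared between this pair.

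Promoter sequence from RefSeq on GRCm38.p6, from 250 bases before to 50 bases after the annotated start, was found for 7 of the 9 genes, in 8 windows, and not for Cd79b and Blk. The stretches before the start are shown for the 4 receptor genes with a match to letters known from B-lineage control regions, 5′ to 3′ on the gene's strand, with the matches in capitals. The letters were CAGGTG (the E-box bound by E proteins), GAGGAA (a PU box, bound by Ets factors of the PU.1 and Spi-B kind), ATGCAAAT (the octamer, bound by Oct factors) and TCCC followed by GGGA after 2 other bases (the EBF palindrome), each searched on both strands. They were chosen with the sequences in view. The Cd79a stretch, chr7:24897247-24897380 on the plus strand, ends where the GENCODE gene model begins. The others are chr16:16869256-16869505 on the minus strand for Vpreb1, chr16:16863986-16864235 on the minus strand for Igll1 and chr10:75948050-75948299 on the plus strand for Vpreb3. The Vpreb1 and Vpreb3 stretches lie inside the GENCODE gene models, which begin further upstream than the RefSeq start.
Cd79a: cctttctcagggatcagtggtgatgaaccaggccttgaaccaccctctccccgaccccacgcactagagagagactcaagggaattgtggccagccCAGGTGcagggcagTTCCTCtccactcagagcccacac
Vpreb1: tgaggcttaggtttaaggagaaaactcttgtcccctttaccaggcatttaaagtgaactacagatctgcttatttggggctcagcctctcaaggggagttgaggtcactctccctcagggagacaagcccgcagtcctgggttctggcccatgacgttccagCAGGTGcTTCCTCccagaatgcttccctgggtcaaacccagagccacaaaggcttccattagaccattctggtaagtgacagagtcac
Igll1: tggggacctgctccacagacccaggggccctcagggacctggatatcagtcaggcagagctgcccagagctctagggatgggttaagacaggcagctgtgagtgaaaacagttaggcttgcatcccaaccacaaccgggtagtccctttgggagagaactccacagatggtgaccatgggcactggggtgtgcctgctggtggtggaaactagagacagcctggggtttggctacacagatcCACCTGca
Vpreb3: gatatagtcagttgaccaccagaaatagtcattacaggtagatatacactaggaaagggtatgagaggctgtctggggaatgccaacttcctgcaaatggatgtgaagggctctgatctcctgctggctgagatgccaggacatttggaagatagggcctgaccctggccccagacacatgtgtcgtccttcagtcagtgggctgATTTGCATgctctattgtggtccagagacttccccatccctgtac

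Positions count from 1 at the RefSeq start and backwards from -1 before it. For Cd79a the stretch shown ends upstream of this start, so its positions do not count from the end of the stretch. Cd79a held the E-box at -154 to -149 and the PU box at -140 to -135. Vpreb1 held both more closely, at -88 to -83 and at -81 to -76. In Igll1 the E-box lay at -8 to -3, and a PU box lay beyond the stretch shown, at 26 to 31. These 3 of 7 genes held both sets of letters, against 5.45% of 32851 RefSeq windows of the same length, of which 20.2% held the E-box and 28.3% the PU box. Vpreb3 held the octamer at -45 to -38, which 1.74% of windows held. The PU box was also in 1 of the windows of Ebf1, and no match was found in the windows of Pax5 and Spib. No member window held the exact letters of the EBF palindrome, which 0.904% of windows held. Only exact letters were searched, so variant sites were missed and absence of a match does not mean absence of a site. Because the letters were chosen with these sequences in view, the shares of windows are descriptions and no test of enrichment. A match is a description of the letters and not evidence of binding.

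The values are FPKM (fragment numbers divided by gene length and by library size), which the authors calculated. Depth is unknown, so the error of each value is the spread of the 3 libraries. FPKM is relative to the rest of the library, and hemoglobin genes took 6.98% to 10.7% of the summed FPKM in Pro and 47.2% to 52.6% in Ortho. From Pro to Ortho the β-globin gene Hbb-bs rose by 3.15 on the log2 scale (adjusted p = 8.36e-08 by limma). The erythroid regulators Gata1 and Klf1 fell by 2.04 and 2.19. Of 11 erythroid genes tested 6 rose and 4 fell, with a median of 0.29. Among all 12994 genes tested, 2949 rose and 6908 fell at an adjusted p under 0.05 by limma. The purity of the sorted cells was not tested. Transcripts of genes that the gate should exclude were present at every stage. Ptprc, which encodes CD45, had an FPKM of 23.6 to 30.3 in Pro and 50.5 to 63.9 in Ortho.

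The signalling chains of the receptor were detected in all 12 libraries. Cd79a had an FPKM of 11.3, 22.5 and 16.0 in Pro replicates 1, 2 and 3, of 25.0, 31.4 and 29.4 in Baso, of 34.4, 44.1 and 41.2 in Poly, and of 38.8, 44.1 and 50.04 in Ortho. Every Baso library was above every Pro library and every Poly library above every Baso library, while Poly and Ortho overlapped. The Ortho mean was 44.3 ± 5.61 against 16.6 ± 5.65 in Pro (SD, n = 3 each), 2.67-fold higher. On the log2(FPKM + 1) scale used for all tests, which lowers the change of low genes, Cd79a rose by 1.41 (SE 0.199, limma, adjusted p = 5.29e-05). In such sorted bulk samples, a change in the number of cells of a type and a change in RNA per cell cannot be told apart.

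Cd79b, its partner, had an FPKM of 15.7, 23.8 and 15.2 in Pro, of 27.6, 29.7 and 30.3 in Baso, of 38.0, 47.0 and 45.1 in Poly, and of 41.2, 50.2 and 52.6 in Ortho. The stages were ordered as for Cd79a, again with overlap of Poly and Ortho only. From Pro to Ortho it rose by 1.37 (SE 0.155, limma, adjusted p = 8.49e-06). The kinase gene Blk was far lower, at 4.34, 7.39 and 4.71 in Pro, 6.84, 9.75 and 7.10 in Baso, 9.97, 12.50 and 13.4 in Poly, and 8.96, 12.8 and 14.1 in Ortho. Pro replicate 2 lay within the Baso range, Ortho replicate 1 lay below the highest Baso library, and every Poly library was above every Baso library. Blk rose by 1.01 from Pro to Ortho (SE 0.207, limma, adjusted p = 0.000907), the smallest change of the 9 on the log2(FPKM + 1) scale. By mean FPKM it rose 2.18-fold, and Igll1 (2.02-fold) and Vpreb1 (2.04-fold) rose less.

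The surrogate light chain genes differed in how well their replicates held together. Vpreb1 had an FPKM of 10.2, 18.2 and 9.20 in Pro, of 15.2, 19.0 and 17.6 in Baso, of 19.3, 26.1 and 22.8 in Poly, and of 21.03, 28.5 and 27.3 in Ortho. Pro replicate 2 lay within the Baso range and Poly overlapped Ortho, while the other pairs of stages were separate. Vpreb1 rose by 1.02 from Pro to Ortho (SE 0.215, limma, adjusted p = 0.00106). Its near copy Vpreb2 was low, at 1.04 to 1.94 in Pro and 5.18 to 5.71 in Ortho, and rose by 1.36 (SE 0.231, adjusted p = 0.000226 in the limma fit). By mean FPKM Vpreb2 rose 3.55-fold, so the test scale understates its change.

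Igll1 was the least regular of the 9. It had an FPKM of 9.18, 21.5 and 9.69 in Pro, of 20.96, 23.0 and 19.8 in Baso, of 26.4, 13.7 and 30.8 in Poly, and of 19.5, 34.9 and 27.1 in Ortho. Pro replicate 2 was as high as the Baso libraries and Poly replicate 2 lay below every Baso library, so no pair of stages was separate. The rise from Pro to Ortho was 1.03 with the largest error of the 9 (SE 0.336, limma, adjusted p = 0.0157), and it did not pass the threshold without Pro replicate 1 (0.82, adjusted p = 0.0642), Pro replicate 3 (0.86, adjusted p = 0.0620) or Ortho replicate 2 (0.83, adjusted p = 0.0644), nor with no filter on low values (adjusted p = 0.0585).

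Vpreb3 was the most abundant of the 9, at 18.2, 26.3 and 18.3 in Pro, 32.6, 46.8 and 31.7 in Baso, 44.7, 57.9 and 54.1 in Poly, and 34.4, 54.9 and 64.3 in Ortho. Pro was separate from every later stage, and Baso, Poly and Ortho overlapped each other. It rose by 1.22 from Pro to Ortho (SE 0.230, limma, adjusted p = 0.000467).

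Of the transcription factors, Pax5 had an FPKM of 3.69, 5.30 and 4.07 in Pro, of 7.21, 7.10 and 7.43 in Baso, of 8.57, 13.4 and 10.5 in Poly, and of 10.3, 11.04 and 12.8 in Ortho. Ebf1 was at 3.67, 6.37 and 3.55 in Pro, 6.98, 6.09 and 7.68 in Baso, 10.8, 11.97 and 10.4 in Poly, and 10.02, 10.4 and 12.3 in Ortho. Both factors stood at similar low levels and overlapped between Poly and Ortho, and for Ebf1 Pro replicate 2 also lay above the lowest Baso library. Pax5 rose by 1.21 from Pro to Ortho (SE 0.152, limma, adjusted p = 1.91e-05) and Ebf1 by 1.14 (SE 0.169, limma, adjusted p = 7.62e-05).

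Spib was several times more abundant and had the smallest error of the 9. The Pro libraries had an FPKM of 13.8, 21.6 and 13.2, the Baso libraries 25.5, 29.4 and 26.9, the Poly libraries 36.6, 39.7 and 36.6, and the Ortho libraries 39.7, 41.6 and 39.8. Pro, Baso and Poly were separate from each other, and only Poly replicate 2 was above the lowest Ortho library. The standard error of its changes was 0.145, and its adjusted p from Pro to Ortho was 7.54e-06 by limma, the lowest of the 9.

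**Figure D1:**
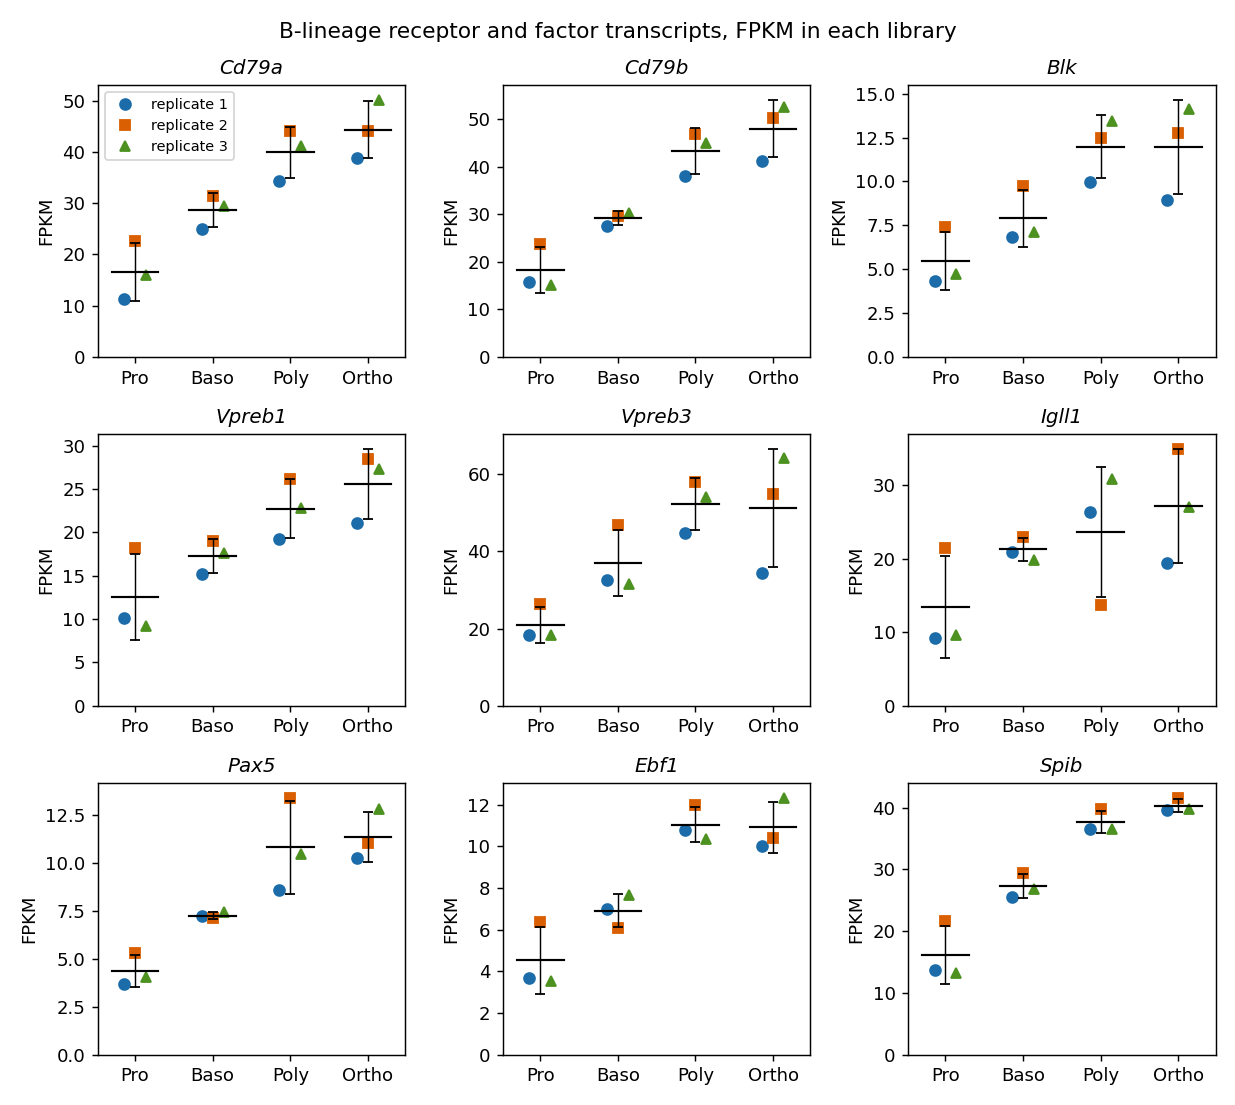
FPKM of each of the 9 transcripts (vertical axes, linear and from 0) in the 3 libraries of each stage, coloured and shaped by replicate number, the mean as a bar and the SD as a whisker. Pro replicate 2 is the highest Pro library in every panel, Poly replicate 2 is the lowest Poly library of Igll1 at 13.7, and Poly and Ortho overlap for all 9.

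The comparisons answer at which step of differentiation the levels differed. A gene was called where it differed by 1 or more on the log2 scale with an adjusted p under 0.05 (limma, Benjamini-Hochberg over all 12994 genes), and is said to have risen or fallen where the adjusted p alone passed. From Pro to Ortho 9 of 9 were called higher, against 6.33% of all genes tested, and 22.7% of all genes passed upwards at the adjusted p alone. In 8 of 9 every Ortho library was above every Pro library, against 23.2% of all genes. From Pro to Poly 7 of 9 were called higher, against 3.59% of all genes, with Vpreb1 at 0.86 (adjusted p = 0.00422) and Igll1 at 0.80 (adjusted p = 0.0552) short of the criteria. At the adjusted p alone 8 of 9 were higher in Poly, against 23.3% of all genes, and in 8 of 9 every Poly library was above every Pro library, against 25.3%. From Pro to Baso 0 of 9 were called by limma, against 1.82% of all genes called higher. At the adjusted p alone 6 of 9 were higher in Baso, against 14.9% of all genes, and 8 of 9 had an unadjusted p under 0.05, against 16.9%. The 6 became 5 with each library brought to the same summed FPKM, with no filter on low values, in a fit of both stages alone and without Pro replicate 1, Pro replicate 3 or Baso replicate 3, where Ebf1 did not pass, and without Baso replicate 2, where Vpreb3 did not. In 5 of 9 every Baso library was above every Pro library, against 16.8% of all genes. The changes from Pro to Baso ran from 0.47 for Blk to 0.79 for Cd79a. Blk (adjusted p = 0.0714), Vpreb1 (adjusted p = 0.0727) and Igll1 (0.72, adjusted p = 0.0874) did not pass. All 3 passed in the limma fit without Pro replicate 2, with 2 of 9 then called, against 2.22% of all genes called higher. All 9 also passed after median centring, against 30.5% of all genes, and without hemoglobin genes, against 27%, with 4 of 9 called in each, against 4.26% and 3.76%. These comparisons share the Pro libraries and are not independent of each other. Since the members were chosen with earlier results known, the shares of all genes beside them are descriptions.

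Between neighbouring later stages the differences were smaller. From Baso to Poly 0 of 9 were called by limma, against 0.0616% of all genes called higher, and 6 of 9 had an unadjusted p under 0.05, against 16.9% of all genes. Cd79b (0.55, adjusted p = 0.0424) and Ebf1 (0.61, adjusted p = 0.0403) rose, 2 of 9 against 6.58% of all genes. Neither passed after median centring or with no filter on low values. The same held without any 1 of the 3 Baso libraries, the 3 Poly libraries or Ortho replicate 2. Of them, 1 was lost without Ortho replicate 1 or 3 or with no variance trend. Without Pro replicate 2, 4 of 9 passed, against 922 of 12823 genes passing upwards. Libraries of Baso, Poly and Ortho with the same replicate number deviated together, so a limma fit to those libraries alone, blocked on the number, was set beside this. With the block 7 of 9 rose from Baso to Poly, by 0.37 for Vpreb1 (adjusted p = 0.00788) to 0.61 for Ebf1 (adjusted p = 0.00989), against 12.6% of all genes, and Vpreb3 (0.50, adjusted p = 0.0687) and Igll1 (0.07, adjusted p = 0.889) did not pass. Blocked over all 12 libraries, limma gave 6 of 9, against 8.42% of all genes, without Vpreb1 (adjusted p = 0.119). In 7 of 9 every Poly library was above every Baso library, against 20.5% of all genes.

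From Poly to Ortho 0 of 9 were called, against 1.05% of all genes called higher. By limma 0 of 9 passed at the adjusted p, against 4.43% of all genes, and 0 of 9 at an unadjusted p under 0.05, against 7.47%. In 0 of 9 was every Ortho library above every Poly library, against 11.3% of all genes. The changes lay between -0.07 for Vpreb3 and 0.23 for Igll1. The 95% interval was -0.29 to 0.59 for Cd79a, -0.22 to 0.42 for Spib and -0.51 to 0.97 for Igll1. A rise of 1 on the log2(FPKM + 1) scale, slightly more than 2-fold in FPKM, lay outside these intervals. Each interval held smaller changes of either sign, within its own bounds.

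**Figure D2:**
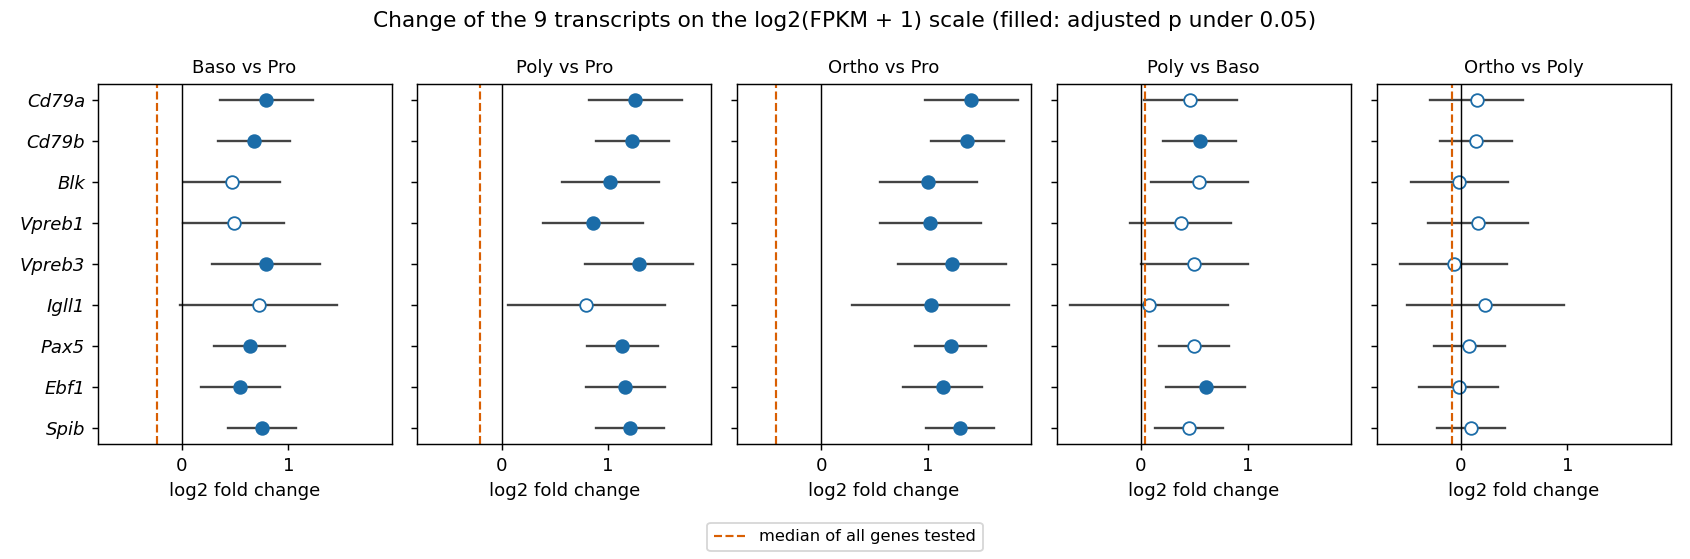
Log2 fold change on the log2(FPKM + 1) scale (horizontal axis) with its 95% interval for the 9 transcripts in each of the 5 comparisons, filled where the adjusted p was under 0.05, with the median of all 12994 genes as a dashed line. From Pro to Ortho all 9 points lie between 1.01 and 1.41, to the right of the dashed line at -0.42, and from Poly to Ortho they lie around 0.

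The whole table moved in the opposite direction. Over all genes tested the median change was -0.23, -0.20 and -0.42 from Pro to Baso, Poly and Ortho on the log2 scale, whereas that of the 9 was 0.68, 1.16 and 1.21. Relative to all genes their changes from Pro to Ortho stood above 93.3% of genes tested for Blk and 97.8% for Cd79a. The direction of the 9 did not depend on how libraries were scaled, but the size of their changes did. With each library brought to the same sum, the median change of the 9 from Pro to Ortho was 0.87, 2 of 9 were called, against 2.47% of all genes, and Igll1 did not pass (adjusted p = 0.0763), while the median of all genes was -0.72. With hemoglobin genes left out it was 1.63, all 9 were called, against 15.3% of all genes, and the median of all genes was -0.03. From Pro to Baso and to Poly the median of all genes was then above 0, at 0.03 and 0.08. Of all genes called from Pro to Ortho, 21.02% were higher as deposited, 6.20% at the same sum, 63.3% without hemoglobin genes and 61.6% after median centring.

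The order of the mean levels was nearly the same at each stage. FPKM is scaled by length, so levels can be set side by side, and Vpreb3 came first, followed by Cd79b, Cd79a, Spib, Igll1, Vpreb1, Blk and then Pax5 and Ebf1. Most neighbours in this order overlapped in their libraries. Vpreb1 and Blk did not overlap at any stage, and neither did Spib and Igll1 in Baso, Poly and Ortho. Vpreb3 and Cd79b were separate in Baso alone, as were Igll1 and Vpreb1. Among all genes tested, 63.1% lay below Cd79a in Pro and 90.3% in Ortho, while 31.0% lay below Pax5 in Pro and 62.8% in Ortho. The summed FPKM of the 9 was 90.1 to 153 over the Pro libraries, 168 to 202 over Baso, 229 to 266 over Poly and 224 to 300 over Ortho.

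Genes whose products work as partners kept similar levels, with 1 exception. Per stage, Cd79a stood to Cd79b at a ratio of 0.908 ± 0.172 (Pro), 0.978 ± 0.0764 (Baso), 0.919 ± 0.0170 (Poly) and 0.925 ± 0.0392 (Ortho; SD, n = 3 each). The ratio of Pax5 to Ebf1 ranged from 0.793 to 1.17 over the 12 libraries. The ratio of Vpreb1 to Igll1, the neighbours on chromosome 16, lay between 0.724 and 1.11 in 11 libraries and at 1.90 in Poly replicate 2. In that library Igll1 was low, while Vpreb1 had its highest Poly value.

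Across the 12 libraries the 9 followed each other. Pearson's r between log2 values was 0.894 to 0.983 over the 28 pairs without Igll1 and 0.644 to 0.773 over the 8 pairs with it. These points share their libraries and the steps between stages. For the deviations from the stage means the median r was 0.789 without Igll1 and 0.509 with it. Within stages the same libraries stood high or low for many members: Pro replicate 2 was the highest Pro library for 9 of 9, Ortho replicate 1 the lowest Ortho library for 9 of 9, and Poly replicate 1 the lowest Poly library for 7 of 9. Immunoglobulin constant region genes had another order, being highest in replicate 1 for 8 of 11 in Baso, 9 of 11 in Poly and 9 of 11 in Ortho. Igkc, the κ light chain constant region, was at 734 in Ortho replicate 1 against 415 and 486 in replicates 2 and 3.

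The genes most like the members over the 12 libraries, taken as the 5 with the highest r for each, held other B cell genes beside genes of no single lineage. Pou2af1, the B cell coactivator of Oct factors, came first for Cd79a (r = 0.986) and was among the 5 for Cd79b and Blk. Chst3, a sulfotransferase gene, came first for Cd79b (r = 0.993) and was also among the 5 for Cd79a, Vpreb3 and Pax5. Slc30a4, a zinc transporter gene, came first for Spib (r = 0.993), St6gal1, a sialyltransferase gene, for Pax5 (r = 0.985), Ptprcap, which encodes a CD45 partner, for Blk (r = 0.981), Gm12057 for Ebf1 (r = 0.977) and Gfra2 for Vpreb1 (r = 0.965). The best value for Igll1 was lower, at 0.906 with Rab7b.

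Other genes of the pre-B stage mostly moved as the members did. Of 18 such genes, 15 rose and 3 fell from Pro to Ortho, 9 were called higher and 3 lower, and their median change was 1.002. Over the same step 22.7% of all 12994 genes tested rose and 6.33% were called higher, while 6908 fell and 3092 were called lower. Rag1, of the recombinase, rose from 2.66 to 4.14 in Pro to 8.85 to 12.4 in Ortho (1.36, limma, adjusted p = 1.67e-05). Il7r, the receptor of the pre-B growth factor IL-7, rose by 1.31 and Blnk, the adaptor below the receptor, by 1.10. The genes that fell, Tcf3 (-1.20), Ikzf1 (-1.21) and Bcl11a (-1.28), encode regulators that are also used outside the B lineage, as is Myb (0.37), and Tcf3, Myb and Ikzf1 were the 3 most abundant of the list.

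Genes of later B cells mostly rose as well, from very different levels. The counts from Pro to Ortho stand against 22.7% of all genes rising and 6.33% called higher. Of 22 mature B cell genes 18 were tested, of which 17 rose and 1, Btk, fell by 0.34, with 7 called higher and a median of 0.97. The 3 most abundant, Irf8 (1.13), Spi1 (0.95) and Syk (1.16), are also expressed by myeloid cells. Ms4a1, which encodes CD20, rose by 0.67 (limma, adjusted p = 0.00255), and 2.19-fold by mean FPKM, but lay between 0.560 and 2.53 in all libraries. Cr2, Ccr6, Cxcr5 and Fcer2a, genes of mature B cells, were too low to be tested, with Cr2 and Ccr6 at 0.218 or below everywhere. Of 11 immunoglobulin constant region genes 6 rose and all 6 were called, with a median of 1.22. Ighm, the μ heavy chain, rose from 87.8 to 138 in Pro to 275 to 308 in Ortho (1.42, limma, adjusted p = 1.61e-06), Igkc by 1.22 and Igha by 1.05. Of 8 plasma cell genes 6 were tested and 4 rose, with a median of 0.56. Jchain rose by 1.58 and Xbp1 by 0.32, and Txndc5 was at -0.39 (adjusted p = 0.133). Constant region genes resemble each other, so the split of their reads is uncertain.

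Genes of other cell types moved as well, and their part in the result was not tested. Beside each count from Pro to Ortho stand 22.7% of all genes rising and 6.33% called higher. All 9 MHC class II genes rose, 3 of them called, with a median of 0.95, such as Cd74 (0.95), H2-Ab1 (0.92) and H2-Aa (1.18). All 10 plasmacytoid dendritic cell genes rose, 4 of them called, with a median of 0.93, among them Bst2 (0.84), Irf7 (1.27) and Tcf4 (0.37). Siglech, a surface gene of these cells, rose by 1.16. Of 11 neutrophil genes 10 rose and 4 were called, with a median of 0.88, led in level by S100a9 (1.24), S100a8 (1.12) and Ngp (0.88). Their summed FPKM was 7738 to 9430 in Pro and 14948 to 18616 in Ortho, far above the sum of the 9. Of 10 macrophage genes 5 were tested and 3 rose, with a median of 0.88, including Cd68 (1.19) and Csf1r (1.11). Cd14 was at 0.70 (limma, adjusted p = 0.249). Vcam1 went the other way, at -0.31, and did not pass, with a mean FPKM of 3.03 in Pro and 2.25 in Ortho. C1qa, C1qb and C1qc were at 1.09 or below everywhere.

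Genes of T and NK cells were uneven in level. Among all 12994 genes tested, 22.7% rose and 6908 fell from Pro to Ortho, with 6.33% called higher and 3092 called lower. Of 12 T and NK cell genes 5 were tested and 4 rose, none of them called, with a median of 0.56. Nkg7, at an FPKM of 20.2 to 38.1, and Cd2, at 0.960 to 3.02, rose by 0.56 and 0.70, and Lck, a T cell kinase gene at 2.01 to 6.60, was at -0.08 (adjusted p = 0.758). Cd3e and Cd3g, of the T cell receptor complex, did not exceed an FPKM of 0.0534. Megakaryocyte genes went the other way: of 8 genes 6 fell and 1, Itga2b (0.39), rose, with 4 called lower and a median of -1.18, including Pf4 (-1.79) and Gp9 (-1.96). Their summed FPKM was 80.4 to 140 in Pro and 46.4 to 55.4 in Ortho. Of the sorting gate genes, Ptprc rose by 1.07, Cd44 by 0.72 and Ly6g, of the GR1 antigen, by 1.04. Of 2 rows for Itgam, which encodes CD11b, 1 rose by 1.68 and the other was at 0.84 (adjusted p = 0.0508). Of 11 erythroid genes tested 6 rose and 4 fell, with a median of 0.29, and Hba-a1 (2.89), Hbb-bs and Slc4a1 (1.55) were the most abundant.

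**Figure D3:**
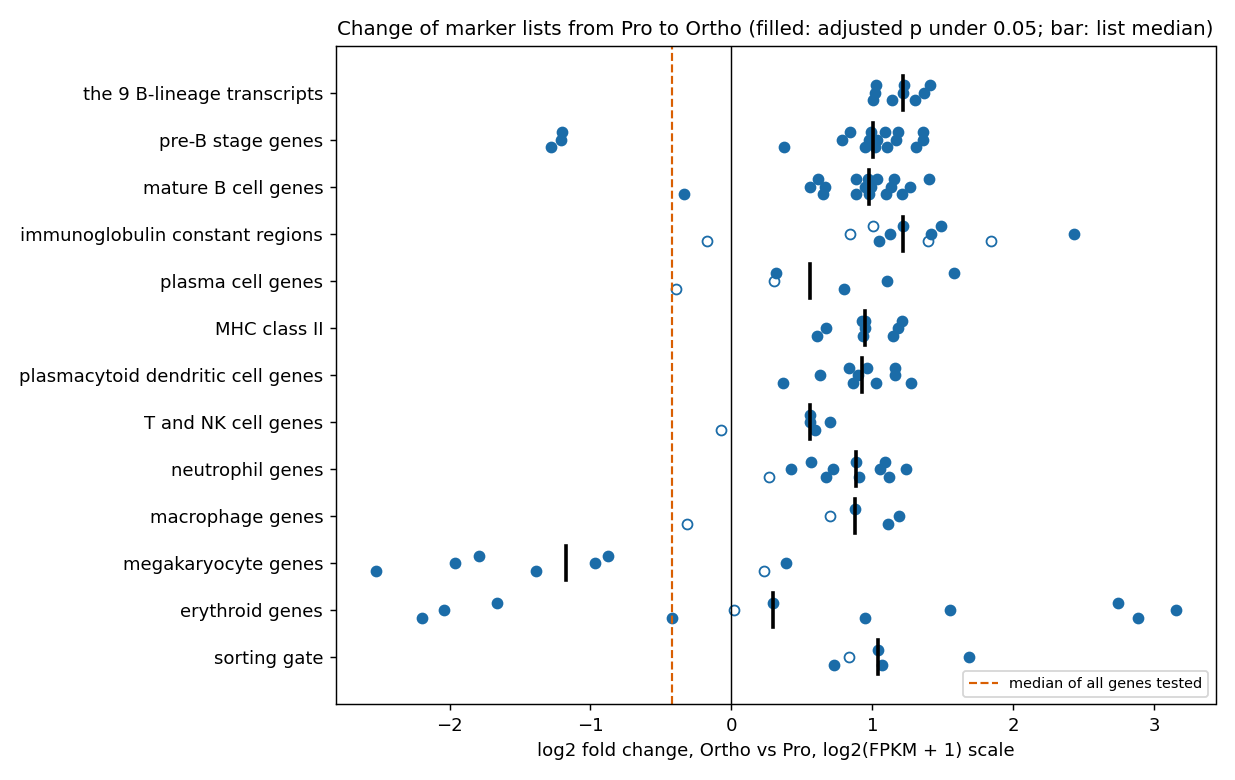
Log2 fold change from Pro to Ortho on the log2(FPKM + 1) scale (horizontal axis) of every tested gene of 13 lists, 1 row per list, filled where the adjusted p was under 0.05, with the list median as a bar and the median of all genes as a dashed line at -0.42. The 9 B-lineage transcripts, with a median of 1.21, overlap the lists of other B cell, dendritic, neutrophil and macrophage genes, and the megakaryocyte list has its median at -1.18.

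Within a library the level of Cd79a was set beside genes outside the 9. Its ratio to Ighm was 0.151 ± 0.0192 for the Pro and 0.156 ± 0.0278 for the Ortho libraries (SD, n = 3 each). Its ratio to Ptprc was 0.615 ± 0.169 for Pro, 0.776 ± 0.189 for Baso, 0.758 ± 0.136 for Poly and 0.782 ± 0.151 for Ortho. Its ratio to S100a8 of neutrophils was 0.00904 ± 0.00314 in Pro and 0.0112 ± 0.00204 in Ortho. The ranges of Pro and Ortho overlapped for Ptprc, Ighm and S100a8. These ratios are descriptions and were not tested.

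**Figure D4:**
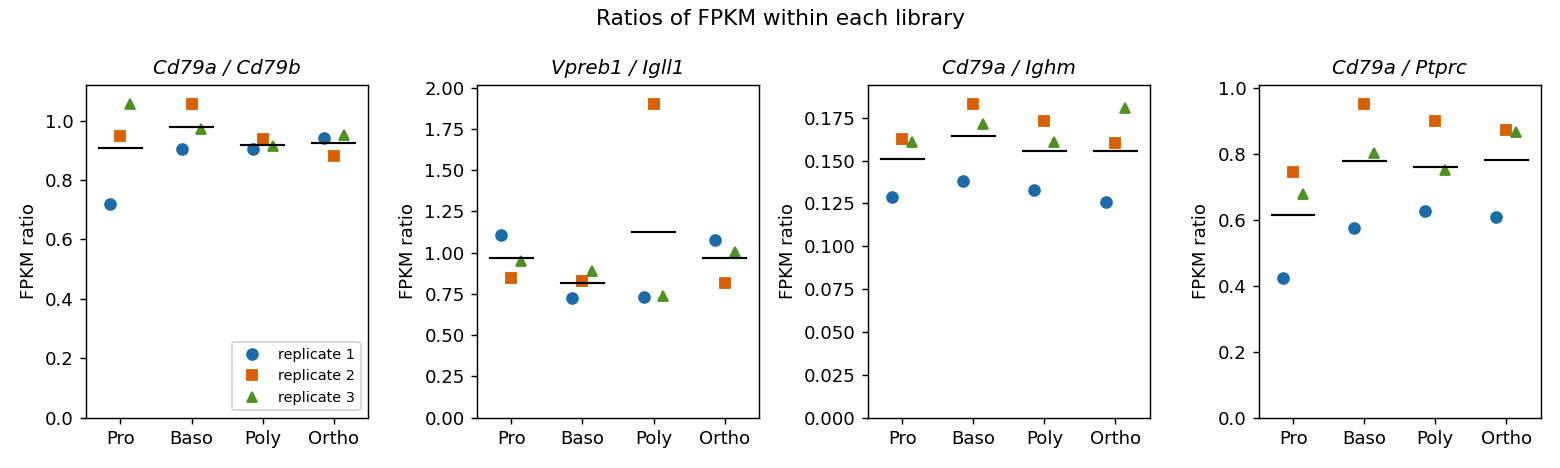
Ratio of FPKM of Cd79a to Cd79b, Vpreb1 to Igll1, Cd79a to Ighm and Cd79a to Ptprc within each library (vertical axes, linear and from 0) by stage, with the replicate number as colour and shape and the mean as a bar. Poly replicate 2 stands at 1.90 for Vpreb1 to Igll1, and replicate 1 is the lowest library of each stage for Cd79a to Ighm and Cd79a to Ptprc.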

How the data were processed

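RNA-seq of Pro, Baso, Poly and Ortho cells was analysed, 3 libraries per stage, grouped by the labels. The authors trimmed reads (cutadapt, Trimmomatic), aligned them to mm10 (HISAT2), counted them (SAMtools, featureCounts) and deposited FPKM per gene and library. Versions, annotation release and the tool behind the FPKM are not given in the sources used here. The paper describes Geek lysis and KAPA Hyper Prep libraries, the labels Trizol and NEBNext Ultra. The authors used DESeq2 on counts, which could not be run on FPKM. Depth is unknown, and the number of libraries limits precision.

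Of 29839 lines 1 repeated identifier was removed. Genes that reached an FPKM of 1 in 3 or more libraries were tested in limma 3.58.1 (R 4.3.3) after a log2 transform with a pseudocount of 1, using a variance trend and all 12 libraries in 1 model, two-sided, with Benjamini-Hochberg adjustment. The model was tested on simulated data. Members and lists were chosen with earlier results of these data known. Named genes were all members, the 3 most abundant genes of each list, a few fixed markers (Vpreb2, Rag1, Ms4a1, Ighm, Igkc, Ptprc) and the 5 genes most correlated with each member. Of these, 1 gene is not reported here. Il7r, Blnk, Bcl11a, Btk, Siglech, Itgam, Vcam1, Klf1, Gata1 and the lowest genes of the lists were named after their values were seen, as were the genes Cd79a was set beside. Alternatives were other pseudocounts, filters and scalings, no variance trend, 2-stage fits, a replicate block, the adjusted p alone and leaving out each library.

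Deviations from stage means of libraries with the same number correlated at 0.156 to 0.319 among Baso, Poly and Ortho, and at 0.00524 to 0.0968 with Pro. The main fit treated all libraries as unpaired. The number was used as a block only in alternative fits, from the values alone. Sequences were read with Python 3.11.15 and Biopython 1.88.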

Additional observations from a re-analysis of the deposited data

How the results depend on the processing

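Every member kept its direction in each comparison with Pro under all alternatives tried. Depth is unknown, and 3 libraries per stage limit what can be told apart, most of all for Igll1. The cause of the changes listed here was not tested, except that a larger pseudocount shrinks the changes of low genes by construction.

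Members called from Pro to Baso were 0 as reported, 4 with each library centred on its median or without hemoglobin genes, 6 by the adjusted p alone, and 0 to 2 when 1 library was left out, 2 without Pro replicate 2. From Pro to Poly they were 7, 4 with a pseudocount of 5 and 6 to 9 when 1 library was left out, against 3.59%, 1.49% and 3.29% to 4.76% of all genes called higher. From Pro to Ortho they were 9, 2 with libraries at the same sum, 4 with a pseudocount of 5 and 6 to 9 when 1 library was left out, with 6 without Pro replicate 1, Pro replicate 3 or Ortho replicate 2. The share of all genes called higher was 6.33%, 2.47%, 2.69% and 5.54% to 7.56% in turn. From Baso to Poly they were 0, and 2 by the adjusted p alone, against 6.58% of all genes, and from Poly to Ortho 0 throughout. Igll1 from Pro to Poly passed without Poly replicate 2 (1.13, adjusted p = 0.0104) or Pro replicate 2 (1.17, adjusted p = 0.00604), with a mean FPKM of at least 5 (adjusted p = 0.0496), after median centring (adjusted p = 0.0201) and without hemoglobin genes (adjusted p = 0.0141).

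All genes called from Pro to Baso were 1347, 598 with a pseudocount of 5, 7405 by the adjusted p alone and 1143 to 1595 when 1 library was left out. From Pro to Poly they were 2130, 1069, 8586 and 2009 to 2447, and from Pro to Ortho 3915, 2088, 9857 and 3731 to 4175, under the same settings. From Baso to Poly they were 67, 122 with a pseudocount of 0.1, 21 with 5, 1605 by the adjusted p alone and 49 to 87, and from Poly to Ortho 762, 439 with a pseudocount of 5, 3397 by the adjusted p alone and 743 to 784.

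With the replicate block over all 12 libraries in limma, 1358, 2146 and 3931 genes were called from Pro to Baso, Poly and Ortho. Members called were 0, 7 and 9, against 1.87%, 3.70% and 6.44% of all genes called higher. Blk (adjusted p = 0.0161) and Vpreb1 (adjusted p = 0.0170) passed from Pro to Baso. With the block over Baso, Poly and Ortho, 74 genes were called from Baso to Poly and 769 from Poly to Ortho, and 0 members in either.

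Changes near 0 turned sign. Igll1 from Baso to Poly lay between -0.147 and 0.408 when 1 library was left out (below 0 without Poly replicate 1, -0.0385, or 3). From Poly to Ortho at the same sum, Cd79a was -0.0353, Cd79b -0.0429, Vpreb1 -0.0181, Pax5 -0.0910 and Spib -0.0860. Without hemoglobin genes Vpreb3 was 0.0743, Blk 0.119 and Ebf1 0.114, and after median centring 0.0820, 0.135 and 0.130. Leaving out 1 library gave -0.251 to 0.190 for Vpreb3, -0.104 to 0.451 for Igll1, -0.136 to 0.164 for Blk, -0.0602 to 0.233 for Pax5 and -0.102 to 0.0355 for Ebf1. No member passed the test from Poly to Ortho under any alternative.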
